A study of Mus musculus with 16 samples.

Results

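The 10 genes described here, Gfap, Aqp4, Slc1a2, Slc1a3, Gja1, Aldh1l1, Sox9, Aldoc, Id4 and Fgfr3, are widely used to mark astrocytes, and were chosen by their symbols out of 23355 genes in the deposited expression table. RNA was sequenced from 7 tumours carrying histone H3.3 with methionine in place of lysine 27 (H3.3K27M) and from 9 tumours carrying the unmutated histone (H3.3WT). All 16 arose in C57BL/6 mice of the Nestin Tv-a; p53 fl/fl genotype, injected on postnatal day 3 with RCAS viruses for PDGF-A, for Cre and for either H3.3K27M or H3.3WT, and were collected untreated at endpoint, so PDGF-A and loss of p53 are shared by both groups. The avian virus enters only cells with the tv-a receptor, here under the Nestin promoter, which is active in neural progenitors. The table numbers its libraries and averages 10 to 16 and 1 to 9 separately. Libraries 10 to 16 were taken as H3.3K27M and 1 to 9 as H3.3WT because only these group sizes match the labels, and every direction below rests on that. No library could be tied to a named tumour, and the series' design text names fewer tumours than the labels. Depth ran from 11439144 reads in library 8 to 41730692 in library 16. Values are normalized counts, which are reads divided by 1 size factor per library.

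Astrocytes clear glutamate from synapses, move water and potassium, couple to each other through gap junctions and fill with intermediate filaments when tissue is injured. None of the 10 genes is exclusive to them. Radial glia and neural stem cells also express Slc1a3, Sox9, Id4, Fgfr3 and Aldoc, oligodendrocyte progenitors carry some Slc1a2 and Slc1a3, and gliomas can express many of these genes in the tumour cells. H3.3K27M inhibits Polycomb repressive complex 2, whose sites in mammals lie mostly in CpG-rich promoters. In bulk tumour RNA, more cells of a type and more RNA per cell cannot be told apart.

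The 250 bases before the start site are shown for 4 of the genes, which form pairs described further on. These are Gfap with Aldh1l1, a pair that passed the test over the 16 libraries, and Gja1 with Fgfr3, whose negative correlation did not pass adjustment. A relation of these bases to the correlations was not tested. Sequences are from RefSeq on GRCm38.p6, read 5′ to 3′ in the direction of transcription, and capitals mark CG dinucleotides.
Gfap: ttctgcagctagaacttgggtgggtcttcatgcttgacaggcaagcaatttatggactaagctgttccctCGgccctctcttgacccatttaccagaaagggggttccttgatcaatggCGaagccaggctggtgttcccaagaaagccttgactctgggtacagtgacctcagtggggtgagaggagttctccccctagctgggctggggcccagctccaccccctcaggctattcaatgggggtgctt
Aldh1l1: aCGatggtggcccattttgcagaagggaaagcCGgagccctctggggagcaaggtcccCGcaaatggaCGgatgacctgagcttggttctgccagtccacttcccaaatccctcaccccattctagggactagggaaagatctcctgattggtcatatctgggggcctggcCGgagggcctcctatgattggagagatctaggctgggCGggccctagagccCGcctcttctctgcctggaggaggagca
Gja1: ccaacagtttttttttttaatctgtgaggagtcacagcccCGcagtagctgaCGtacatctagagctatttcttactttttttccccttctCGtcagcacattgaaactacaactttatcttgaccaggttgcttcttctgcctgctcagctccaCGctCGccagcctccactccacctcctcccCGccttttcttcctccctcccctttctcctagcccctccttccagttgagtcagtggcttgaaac
Fgfr3: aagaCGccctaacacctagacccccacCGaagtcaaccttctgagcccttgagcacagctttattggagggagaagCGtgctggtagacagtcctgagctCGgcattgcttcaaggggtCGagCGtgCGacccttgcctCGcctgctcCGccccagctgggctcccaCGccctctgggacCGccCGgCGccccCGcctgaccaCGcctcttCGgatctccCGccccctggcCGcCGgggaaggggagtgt
These lie at chr11:102897201-102897450 (minus strand), chr6:90550543-90550792, chr10:56377050-56377299 and chr5:33721474-33721723 (plus strand). Gfap had 2 CG dinucleotides in this window, Aldh1l1 7, Gja1 6 and Fgfr3 19, against a median of 6 over 32851 promoters of the table. A promoter was found for 8 of the 10 genes, all but Aqp4 and Sox9. Those of Slc1a2, with 1 CG, and Slc1a3, with 2, were poor in it, and that of Id4, with 35, was the richest of the genes matched. Fgfr3 and Aldoc each have a second listed start, with 24 CG at the second of Fgfr3 and with 5 and 3 CG at those of Aldoc.

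Motifs of 3 factors known for astrocyte gene control were searched on both strands of these windows. TTCNNNGAA, the letters bound by STAT factors, was found in Slc1a3, 96 bases before the start, and at 2 places in Aldoc, and stood in 7.02% of all promoters. TTGGC, 1 arm of the palindrome bound by nuclear factor I, was found in Slc1a2, Aldoc and Id4 and in 41.5% of all promoters. TGGGAA, bound by the Notch effector RBPJ, was found in Gfap, Aldh1l1, Aldoc and Id4 and in 21.6% of all promoters. None of these matches overlapped another. The windows of Gja1 and Fgfr3 held none of the 3 sets of letters.

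Gfap encodes the intermediate filament of astrocytes (mm10, chromosome 11, 102887335 to 102897200, minus strand). Its level in H3.3K27M tumours ran from 1036 through a median of 4557 to 8887 normalized counts, and in H3.3WT tumours from 960 through 7996 to 58836. All 7 H3.3K27M values lay inside the H3.3WT range, and 6 of 7 lay below the H3.3WT median. The means were 4213 ± 3126 in H3.3K27M (SD, n = 7) and 11707 ± 18174 in H3.3WT tumours (SD, n = 9). The H3.3WT mean was 5815 ± 4530 without library 6, which held the highest value. The log2 fold change on the log2(value + 1) scale was -0.80 ± 0.74 (SE), with a 95% interval of -2.36 to 0.76 and an adjusted p of 0.623 by limma with Benjamini-Hochberg adjustment over all genes tested. Without library 6 it was -0.37, and it was -1.47 by edgeR on the recovered reads.

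Aqp4 encodes the water channel of astrocyte endfeet (chromosome 18, 15389393 to 15410982). It ran from 162 through a median of 1438 to 2352 normalized counts in H3.3K27M tumours, and from 48.3 through 1482 to 4840 in H3.3WT tumours. The medians nearly coincided, and the widest spread of the gene was in the H3.3WT group, with its lowest value in library 8 and its highest in library 6. The log2 fold change was 0.02 ± 0.80 (SE; limma adjusted p = 0.991), and it was -0.50 without library 8, 0.43 without library 16 and -0.40 by edgeR or DESeq2. Gja1 encodes connexin 43, the main gap junction protein of astrocytes (chromosome 10, 56377299 to 56390419). It ran from 175 through a median of 379 to 893 normalized counts in H3.3K27M tumours, and from 398 through 496 to 4988 in H3.3WT tumours. Of the 7 H3.3K27M values, 5 lay below the H3.3WT median and 4 lay below the lowest H3.3WT value; for each of the other 9 genes at most 2 lay outside the H3.3WT range. The means were 450 ± 270 (SD, n = 7) in H3.3K27M and 1055 ± 1492 (SD, n = 9) in H3.3WT tumours, the H3.3WT mean being 563 ± 244 without library 6. The log2 fold change was -0.81 ± 0.48 (SE), with a 95% interval of -1.81 to 0.19, an unadjusted limma p of 0.107 and an adjusted p of 0.415. It shrank to -0.45 without library 6, and edgeR gave -1.23 (unadjusted p = 0.0435, adjusted p = 0.305). DESeq2, which replaced the count of library 6 as an outlier, gave -0.31 (adjusted p = 0.638). The authors' deposited table gives -0.24 for Gja1. Its fold changes were smaller in size than those of DESeq2 here for the other genes too, as for Gfap (-0.60 against -1.47) and Fgfr3 (0.52 against 0.82). The reason was not tested. The overall mean in the authors' deposited table, 509, lies under the plain mean of 790 for Gja1, whereas for the other 9 genes both are equal.

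Slc1a2 and Slc1a3 encode GLT-1 and GLAST, the transporters by which astrocytes take up glutamate. Slc1a2 (chromosome 2, 102706437 to 102778106) ran from 6450 through a median of 11326 to 28833 normalized counts in H3.3K27M tumours, and from 4643 through 11332 to 23889 in H3.3WT tumours. Slc1a3 (chromosome 15, 8634123 to 8710807) ran from 7124 through 10679 to 24687 in H3.3K27M tumours, and from 5098 through 8323 to 27705 in H3.3WT tumours. For Slc1a2, 5 of 7 H3.3K27M values lay inside the H3.3WT range, and for Slc1a3 all 7 did. For Slc1a3 the highest H3.3WT value, in library 6, stood far above the other 8 of its group. The log2 fold change was 0.13 ± 0.39 (SE; limma adjusted p = 0.896) for Slc1a2. That of Slc1a3 was 0.35 ± 0.32 (SE; limma adjusted p = 0.606), and without library 6 it was 0.56 with an unadjusted limma p of 0.0444 and an adjusted p of 0.390. Per kilobase of exon, Slc1a3 exceeded Slc1a2 in 6 of 7 H3.3K27M and in 8 of 9 H3.3WT libraries.

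Aldh1l1 encodes a folate-metabolising dehydrogenase (chromosome 6, 90550847 to 90599171), and Aldoc the brain form of the glycolytic enzyme aldolase (chromosome 11, 78324197 to 78327778). Aldh1l1 ran from 18.6 through a median of 148 to 462 normalized counts in H3.3K27M tumours, and from 29.8 through 61.8 to 1596 in H3.3WT tumours. Its SD of log2 values, 1.92 in H3.3K27M and 2.12 in H3.3WT tumours, was the highest of the 10 genes in each group, and 5 of 7 H3.3K27M values lay above the H3.3WT median although the mean was lower, at 215 ± 194 (SD, n = 7) in H3.3K27M against 342 ± 507 (SD, n = 9) in H3.3WT tumours. Its log2 fold change was -0.16 ± 0.91 (SE; limma adjusted p = 0.950), and 0.29 without library 6. Aldoc ran from 6341 through 23081 to 31361 in H3.3K27M tumours, and from 5222 through 16372 to 35223 in H3.3WT tumours. Its log2 fold change was 0.24 ± 0.43 (SE; limma adjusted p = 0.819).

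Sox9 encodes a transcription factor that starts gliogenesis (chromosome 11, 112782209 to 112787757), Id4 an inhibitor of basic helix-loop-helix factors (chromosome 13, 48261426 to 48264036) and Fgfr3 a fibroblast growth factor receptor (chromosome 5, 33721723 to 33737068). Sox9 ran from 160 through a median of 568.4 to 1973 normalized counts in H3.3K27M tumours, and from 228 through 580 to 3561 in H3.3WT tumours. Id4 ran from 212 through 470 to 1234 in H3.3K27M tumours, and from 60.8 through 572 to 1429 in H3.3WT tumours. Their medians differed little between the groups, with log2 fold changes of 0.04 ± 0.54 for Sox9 and -0.01 ± 0.50 for Id4 (SE; limma adjusted p of 0.978 and 0.996). Fgfr3 ran from 731 through 2250 to 6248 in H3.3K27M tumours, and from 438 through 1171 to 3960 in H3.3WT tumours. Of the 7 H3.3K27M values, 5 lay above the H3.3WT median, and that of library 16 lay above the whole H3.3WT range. The means were 2594 ± 1884 in H3.3K27M (SD, n = 7) and 1471 ± 1104 in H3.3WT tumours (SD, n = 9). Its log2 fold change of 0.82 ± 0.47 (SE) was the highest of the 10, with a 95% interval of -0.16 to 1.80, an unadjusted limma p of 0.0963 and an adjusted p of 0.402. It was 0.55 without library 16, and 1.04 and 1.07 without library 3 or 12.

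**Figure D1:**
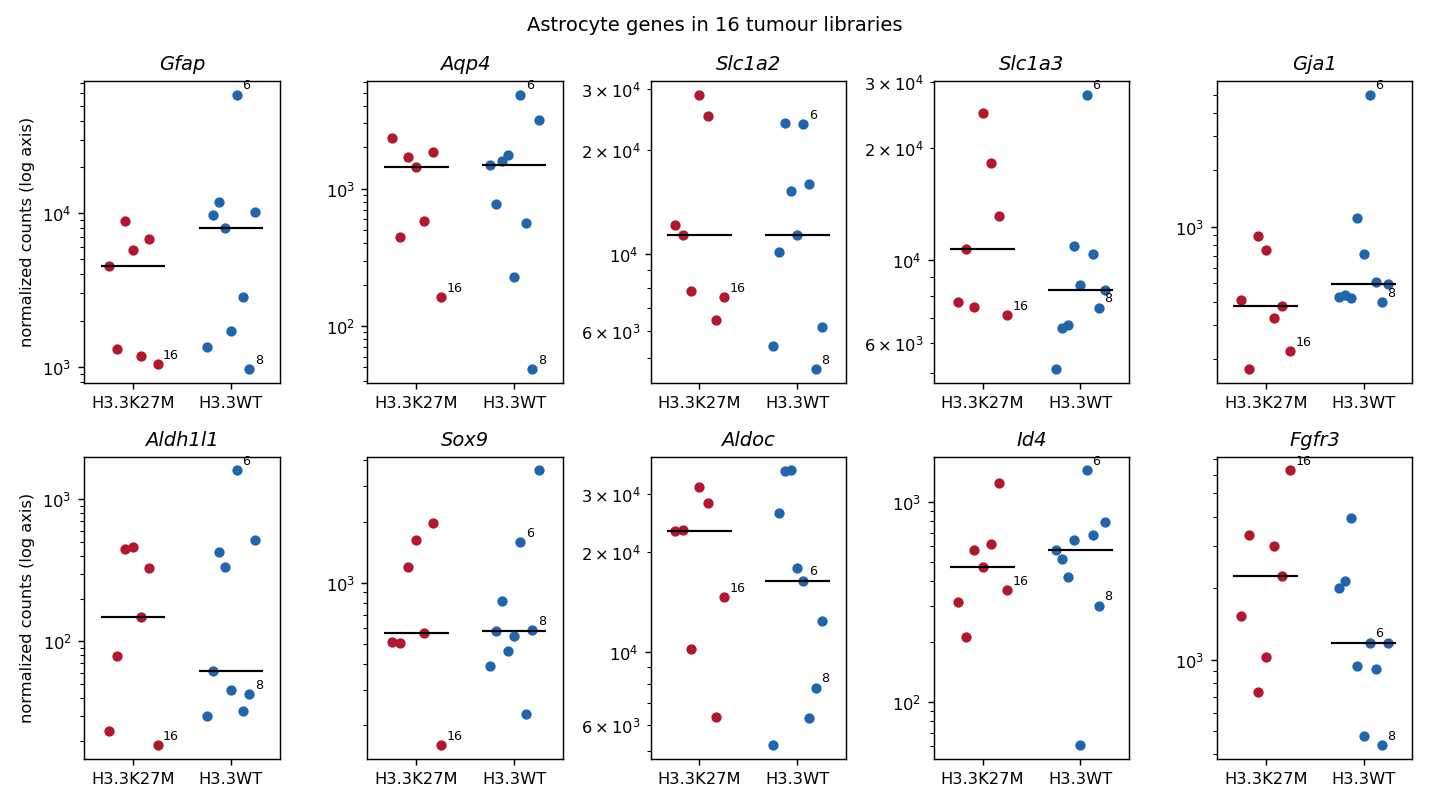
Normalized counts of the 10 astrocyte genes on log axes, 1 point per library, for H3.3K27M (7 libraries) and H3.3WT tumours (9 libraries), with a line at each group's median; libraries 6, 8 and 16 are numbered. The groups overlap for all 10 genes, and library 6 holds the highest value of 6 of them.

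Between the groups, 0 of the 10 genes passed limma at an adjusted p under 0.05, as did 0% of the 15007 genes tested; over all genes edgeR called 0 and DESeq2 108, none of them among the 10. At an unadjusted p under 0.05 stood 0 of the 10, against 15.3% of all genes tested; edgeR put Gja1 there and DESeq2 none of the 10. The groups overlapped for 10 of 10 genes, and they did not overlap for 0.0333% of all genes. All 7 H3.3K27M values lay inside the H3.3WT range for 5 of the 10 (Gfap, Aqp4, Slc1a3, Aldoc and Id4), against 30.7% of all genes. Of the 10 log2 fold changes 6 were positive and 4 negative, with a median of 0.03 beside a median of 0.00480 over all genes tested. Without library 6, 8 were positive and the median was 0.26. The intervals were wide: they allow a fold from 0.195 to 1.70 for Gfap and from 0.238 to 3.38 for Aldh1l1, and from 0.805 to 2.02 for Slc1a3, the narrowest. The authors' deposited table gives adjusted p-values of 0.292 for Gfap, 0.360 for Fgfr3 and at least 0.637 for the other 8, in a table where 213 genes stand at an adjusted p under 0.05.

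**Figure D2:**
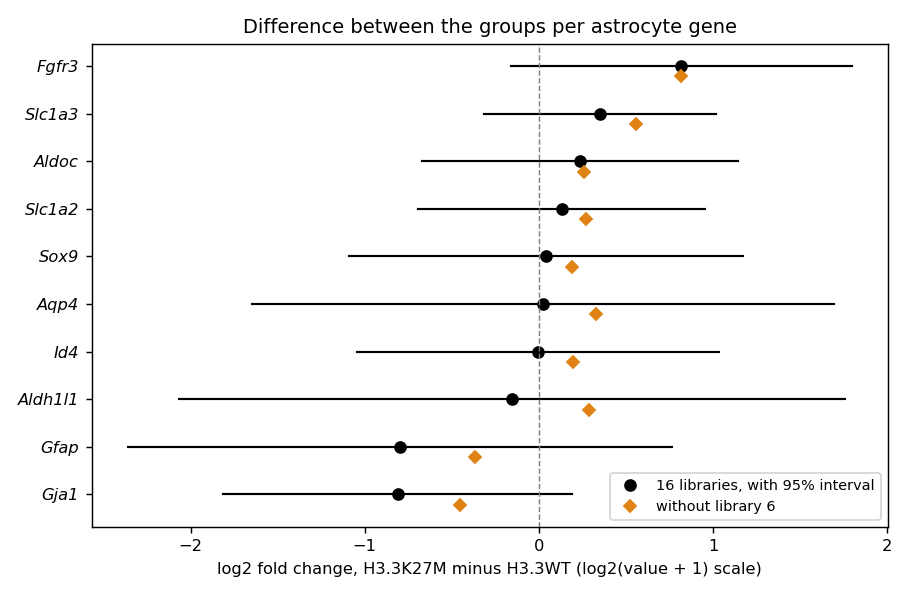
Log2 fold change (H3.3K27M minus H3.3WT, on the log2(value + 1) scale) of each astrocyte gene over 16 libraries with its 95% interval (black), and without library 6 (orange diamond, no interval drawn). Every interval holds 0, from Fgfr3 at 0.82 to Gja1 at -0.81.

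The order of levels per kilobase of exon, by the median over 16 libraries, was Aldoc (5250 normalized counts per kilobase), Gfap (1225), Slc1a3 (989), Slc1a2 (863), Aqp4 (234), Fgfr3 (190), Id4 (141), Sox9 (139), Gja1 (41.9) and Aldh1l1 (25.1). This order depends on the length taken, which is that of all annotated exons of a gene merged. It was 10257 bases for Gja1, 4135 for Sox9, 13133 for Slc1a2 and 8537 for Slc1a3. On this scale Aldoc exceeded Gfap in 15 of 16 libraries, Slc1a2 exceeded Aqp4 in 15 and Sox9 exceeded Gja1 in 15. Slc1a3 exceeded Slc1a2 in 14, whereas without division by length the median of Slc1a2 was the higher in both groups. The other neighbours did not keep their order: Gfap exceeded Slc1a3 in 8 of 16 libraries, Aqp4 exceeded Fgfr3 in 6, Fgfr3 exceeded Id4 in 9, Id4 exceeded Sox9 in 5 and Gja1 exceeded Aldh1l1 in 9. Gja1 exceeded Aldh1l1 in 2 of 7 H3.3K27M and in 7 of 9 H3.3WT libraries. That split was picked after its values were seen and was not tested.

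The 10 genes varied widely between tumours. Over all 16 libraries, both groups together, the highest library held 100.2 times the lowest for Aqp4, 85.9 times for Aldh1l1, 61.3 times for Gfap and 28.5 times for Gja1, and 5.43 to 6.75 times for Slc1a3, Slc1a2 and Aldoc. The within-group SD of the log2 value was 2.03 for Aldh1l1, 1.79 for Aqp4 and 1.68 for Gfap, which lay at percentiles 98.5, 97.5 and 96.8 of all genes tested. The lowest was Slc1a3 with 0.70 at percentile 72.4. The median SD was 1.07 over the 10 genes and 0.467 over all genes tested. Beside the 1000 genes nearest in mean level, 10 of the 10 lay above percentile 90, and 8 without library 6, the exceptions then being Slc1a3 and Gja1. These places are a description, and no test was made of them.

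Library 6, labelled by its place as H3.3WT, stood highest of 16 for Gfap, Aqp4, Slc1a3, Gja1, Aldh1l1 and Id4, against 9.24% of all genes tested. Its Gfap was 58836 normalized counts, where the next H3.3WT library held 11816. It did not lead for Fgfr3, at 1180, or for Aldoc, at 16372. Markers of other cell types were also high in it. Summed over 20 neuron markers it held 111525 normalized counts, where the H3.3K27M libraries held 32554 to 55823 and the other 8 H3.3WT libraries 36387 to 61196. For 12 mature oligodendrocyte markers it held 235579, against 27379 to 108336 in H3.3K27M and 23678 to 104521 in the remaining H3.3WT libraries. For the listed ependymal markers it held 3845, against 126 to 585 in H3.3K27M and 189 to 607 in the remaining H3.3WT libraries. For 5 haemoglobin genes it held 455951, against 206 to 41035 in H3.3K27M and 234 to 138198 in the remaining H3.3WT libraries. Of 15 microglia and macrophage markers it also held the highest sum, 45965, where H3.3K27M libraries held 16371 to 36573 and the other H3.3WT libraries 20360 to 44110, the last in library 8. Its sum of 16 oligodendrocyte progenitor markers, 293283, was the second lowest. Other astrocyte lists differed in it: it ranked 7 of 16 for the sum of 26 other astrocyte markers (239038), 11 for water and ion handling, 9 for gap junction partners, and 16, the lowest, for astrocyte transcription factors and for FGF and BMP signalling. It ranked 3 for glutamate and glutamine handling, 10 for Bergmann and radial glia genes and 2 for genes of reactive astrocytes. Some lists share genes, and a sum follows its highest genes. Ptprz1, also listed as an oligodendrocyte progenitor marker, held 42176 of the 85016 normalized counts of the Bergmann and radial glia sum in library 6. In the same library Apoe held 67736 of the 239038 for other astrocyte markers, and Tjp1 held 4882 of the 7633 for gap junction partners. Sox10 stands in both the transcription factor and the progenitor list, and the FGF and BMP list also holds the cytokine receptor genes Lifr and Il6st. No listed marker in the table was at 0 in all libraries. The part of these cells in the astrocyte gene values was not tested.

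**Figure D3:**
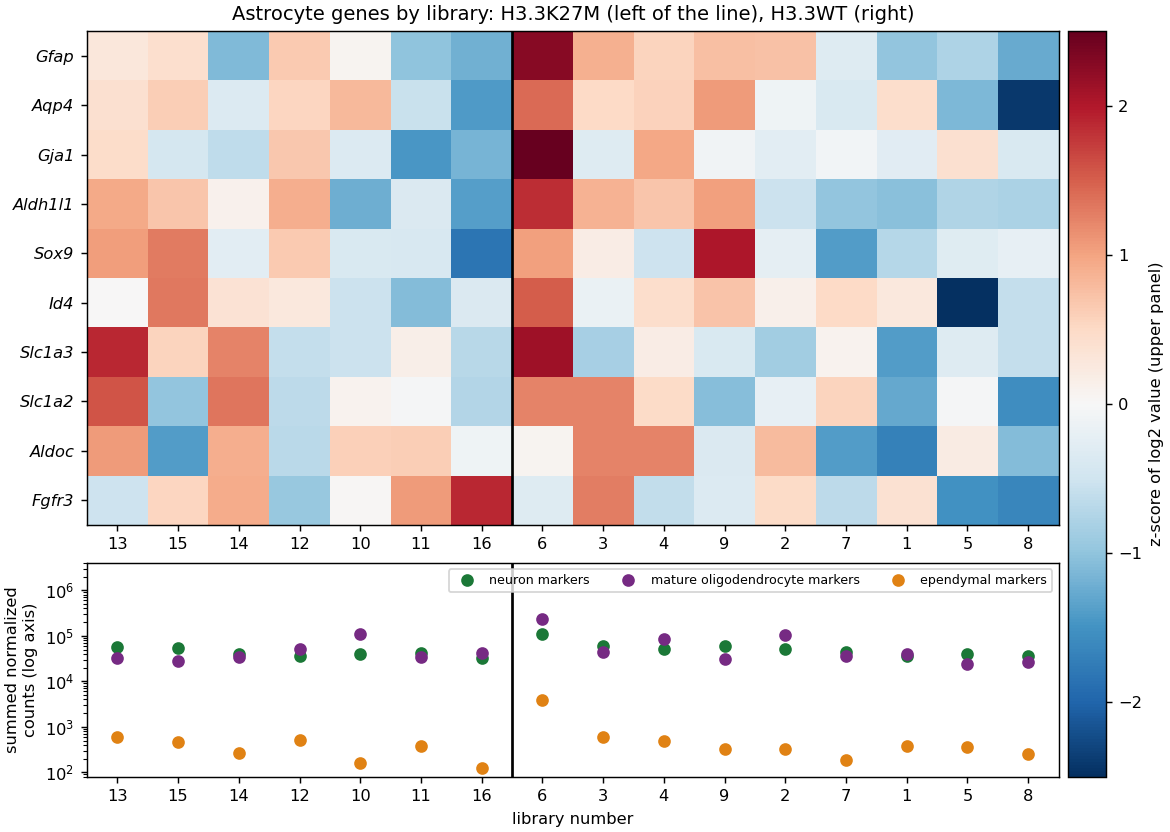
Upper panel: z-score of the log2 value of each astrocyte gene (rows) in each library (columns), H3.3K27M left of the line and H3.3WT right of it, each sorted by the mean of the 10 z-scores. Lower panel: summed normalized counts of neuron, mature oligodendrocyte and ependymal markers in the same libraries on a log axis, all highest in library 6.

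The mean z-score of the 10 genes ran from -0.70 in library 16 to 0.71 in library 13 among H3.3K27M tumours, and from -1.05 in library 8 to 1.41 in library 6 among H3.3WT tumours. In library 8, the shallowest, and in library 16, the deepest, 1 of the 10 genes lay above its median over 16 libraries, which for library 16 was Fgfr3 and for library 8 was Sox9. Among the libraries with the highest means, the leading genes were Gja1 and Gfap in library 6, Slc1a3 and Slc1a2 in library 13, Fgfr3 and Slc1a2 in library 3, Aldoc and Gja1 in library 4, Sox9 and Aqp4 in library 9, and Id4 and Sox9 in library 15.

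Across the 16 libraries the genes fell into partly linked groups. Of 45 pairs, 39 had a Pearson r above 0, against 49.8% of all pairs of tested genes. The median r of the 45 was 0.36 (0.39 with group means removed and 0.25 without library 6). Over all pairs of tested genes the median was -0.00186. By a two-sided permutation test with Benjamini-Hochberg adjustment over the 45 pairs, 9 pairs passed for Pearson's r. Of these, 3 passed for Spearman's rho as well. The share of all gene pairs that correlate as strongly was not computed. Aldh1l1 and Sox9 had r = 0.80 and rho = 0.79 (permutation p = 9.0e-05 and 3.8e-04, adjusted p = 0.00405 and 0.0124), r = 0.75 without libraries 6 and 16, and r = 0.89 within H3.3K27M and 0.74 within H3.3WT tumours. Gfap and Aqp4 had r = 0.78 and rho = 0.78 (permutation p = 3.4e-04 and 5.5e-04, adjusted p = 0.00765 and 0.0124), r = 0.73 without libraries 6 and 8, and 0.89 and 0.78 within H3.3K27M and H3.3WT tumours. Gfap and Aldh1l1 had r = 0.78 and rho = 0.72 (permutation p = 5.8e-04 and 0.00254, adjusted p = 0.00870 and 0.0381), r = 0.68 without libraries 6 and 8, and 0.61 and 0.89 within H3.3K27M and H3.3WT tumours.

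Slc1a2 passed with a different pair of genes, Aldoc and Slc1a3, while Slc1a3 and Aldoc had r = 0.28 with each other (adjusted permutation p = 0.450). Slc1a2 correlated with Aldoc at r = 0.69 and rho = 0.68 (permutation p = 0.00417 and 0.00487, adjusted p = 0.0317 and 0.0548; r = 0.62 without libraries 8 and 13). It correlated with Slc1a3 at r = 0.66 and rho = 0.55 (permutation p = 0.00493 and 0.0282, adjusted p = 0.0317 and 0.127; r = 0.57 without the same libraries). With Gfap, Slc1a2 had r = 0.36 and Aldoc r = 0.23, and neither passed (adjusted permutation p = 0.309 and 0.531). The link of Gfap with Gja1, r = 0.74 and rho = 0.62 (permutation p = 0.00127 and 0.0118, adjusted p = 0.0143 and 0.0760), was 0.55 without libraries 6 and 8. All these genes share the libraries and their size factors.

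**Figure D4:**
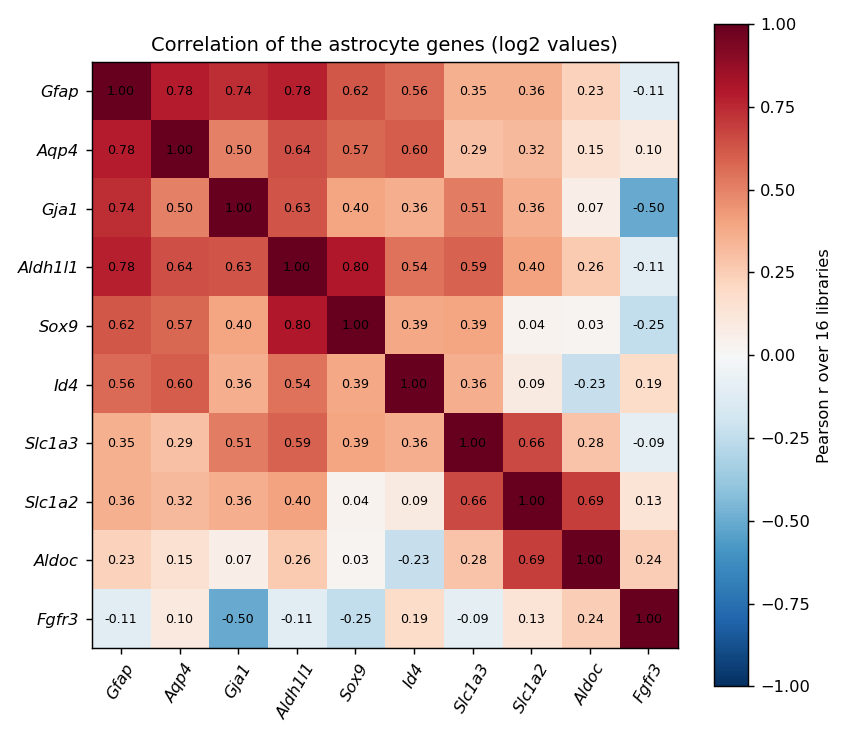
Pearson r between the log2 values of each pair of astrocyte genes over 16 libraries, red for positive and blue for negative. Gfap, Aqp4, Gja1, Aldh1l1, Sox9 and Id4 are positive with each other at 0.36 to 0.80, and Fgfr3 stands apart, at -0.50 with Gja1.

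Fgfr3 was the member least like the others, with a median r of -0.09 with the other 9. Within the 7 H3.3K27M tumours its level ran opposite to Gja1, at r = -0.92 and rho = -0.96 (exact permutation p = 0.00417 and 0.00278). It also ran opposite to Gfap, at r = -0.87 and rho = -0.86 (exact permutation p = 0.0143 and 0.0238), and to Aqp4, at r = -0.84 and rho = -0.71 (exact permutation p = 0.0181 and 0.0881). Without libraries 12 and 16, those farthest from the median of Fgfr3, r was -0.91 for Gja1, -0.77 for Gfap and -0.73 for Aqp4 over 5 libraries. Within the 9 H3.3WT tumours the same pairs had r = -0.14 for Gja1 and rho = -0.17 (exact permutation p = 0.708 and 0.678), r = 0.45 for Gfap and rho = 0.62 (exact permutation p = 0.224 and 0.0857), and r = 0.62 for Aqp4 and rho = 0.53 (exact permutation p = 0.0768 and 0.148). None of the 18 relations of Fgfr3 within a group passed Benjamini-Hochberg adjustment, the smallest adjusted exact permutation p being 0.0750 for r and 0.05 for rho, both for Gja1 in H3.3K27M tumours. The difference between the groups in these relations was not tested, and the set was picked after the pairs over 16 libraries were seen.

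**Figure D5:**
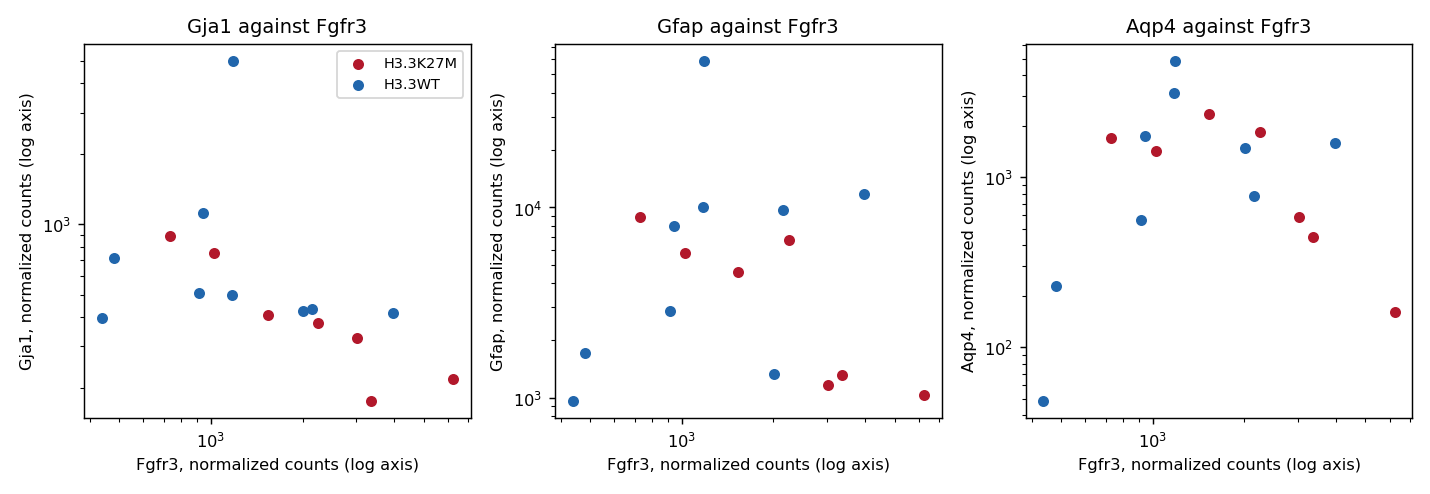
Gja1, Gfap and Aqp4 against Fgfr3 in normalized counts on log axes, 1 point per library, H3.3K27M in red and H3.3WT in blue. The H3.3K27M points run from upper left to lower right in each panel (r = -0.92, -0.87 and -0.84), while the H3.3WT points have r of -0.14, 0.45 and 0.62.

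The genes whose log2 values over the 16 libraries were most like the mean z-score of the 10 were Cds1 (r = 0.95), Hpcal4 (0.95), Fam163b (0.93), Tmem130 (0.93), Pitpnm3 (0.92), Slc39a12 (0.91), Lrfn5 (0.91) and Dnajc6 (0.91). They were taken as the highest r among all other genes tested, so r is a description here. Without library 6 their r was 0.88 to 0.93. Slc39a12, a zinc transporter gene of astrocytes, ran from 14.5 through a median of 48.8 to 201 normalized counts in H3.3K27M tumours, and from 0 through 40.1 to 677 in H3.3WT tumours. Hpcal4, a neuronal calcium sensor gene, ran from 10.5 through 108 to 156 in H3.3K27M tumours, and from 8.52 through 88.9 to 3239 in H3.3WT tumours. Dnajc6, the gene of the neuronal clathrin uncoating factor auxilin, ran from 40.4 through 68.6 to 433 in H3.3K27M tumours, and from 25.6 through 56.4 to 991 in H3.3WT tumours. Library 6 was the highest for each of these 3.

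Other genes of astrocyte function are given from lists. None of them passed limma after adjustment, and the counts that follow are at an unadjusted limma p under 0.05, where 8.70% of all genes stood higher and 6.61% lower in H3.3K27M tumours. Of 26 other astrocyte markers 0 stood higher and 3 lower, and the list's median log2 fold change was -0.18. Slc14a1, a urea transporter gene, averaged 945 ± 667 normalized counts in H3.3K27M (SD, n = 7) and 1657 ± 533 in H3.3WT tumours (SD, n = 9; log2 fold change -1.03 ± 0.34, limma adjusted p = 0.257). Clu, the clusterin gene, had a log2 fold change of -0.86 ± 0.35 and Apoe, the lipid carrier gene, -0.67 ± 0.31 (SE; limma adjusted p of 0.272 and 0.317). Of 12 genes of water and ion handling 0 stood higher or lower (median 0.11), the potassium channel gene Kcnj10 having 0.54 ± 0.28 (SE). Of 9 genes of glutamate and glutamine handling 1 stood higher, the glycine transporter gene Slc6a9 (0.73 ± 0.35, SE), and 0 lower (median 0.04). Of 5 gap junction partners, the scaffold gene Tjp1 stood higher (0.43 ± 0.17) and the connexin 26 gene Gjb2 lower (-1.23 ± 0.54, SE). The median of this list, -0.68, was the value of Gjd2, a connexin gene mainly of neurons. For Gjb2, 0 of 7 H3.3K27M tumours exceeded the middle H3.3WT value, and with library 6 left out it no longer stood at an unadjusted limma p under 0.05.

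Of 24 astrocyte transcription factor genes 21 were tested, of which Pou3f4 (0.90 ± 0.32) and Nfib (0.29 ± 0.12, SE), the gene of a nuclear factor I protein, stood higher and 0 lower (median 0.20). Of 20 genes listed for FGF and BMP signalling 19 were tested. The list also holds the leukaemia inhibitory factor receptor gene Lifr and Il6st, which are cytokine receptor genes outside FGF and BMP signalling. Smad5 (0.37 ± 0.13) and Lifr (0.68 ± 0.29, SE) stood higher and 0 lower (median 0.06). Of 12 Bergmann and radial glia genes 11 were tested and 0 stood higher or lower (median -0.17). Of 25 genes of reactive astrocytes 0 stood higher and 4 lower, with 22 of 25 below 0 and a median of -0.55. Without library 6 the median was -0.38, with 1 higher and 4 lower. S100a10 averaged 2311 ± 754 in H3.3K27M (SD, n = 7) and 4871 ± 3129 normalized counts in H3.3WT tumours (SD, n = 9; log2 fold change -0.94 ± 0.31, limma adjusted p = 0.257). The proteoglycan core gene Srgn had -1.21 ± 0.43 and the intermediate filament gene Vim -0.66 ± 0.25 (SE). Several of these genes are also expressed by immune and vascular cells. Among marker lists of other cells, the 16 oligodendrocyte progenitor markers had a median of 0.12, and Sox6, a transcription factor gene of these cells, had 0.79 ± 0.20 (SE; limma adjusted p = 0.257). Of 19 neuron markers tested 1 stood higher, the microtubule protein gene Map2 (0.40 ± 0.18, SE), and 3 lower, among them the surface protein gene Thy1 (-1.73 ± 0.45) and the synaptic vesicle gene Syp (-0.98 ± 0.42, SE; median of the list -0.58). Of 14 endothelial markers 0 stood higher and 3 lower (median -0.46). Of the mature oligodendrocyte (11 tested, median -0.66), microglia and macrophage (15, -0.35), ependymal (4, -0.35) and haemoglobin markers (5, -2.77) 0 stood higher or lower. Without library 6, the median was -0.21 for neuron markers, with 1 higher and 2 lower, -0.35 for mature oligodendrocyte, 0.028 for ependymal and 0.060 for oligodendrocyte progenitor markers. It was then 0.17 for glutamate and glutamine handling, 0.019 for FGF and BMP signalling, with 1 higher and 0 lower, and 0.015 for Bergmann and radial glia genes.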

How the data were processed

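Per the labels' protocols, RNA was extracted with a Qiagen kit and TruSeq mRNA libraries were sequenced as 50 bp single reads. STAR 2.7, HTSeq, DESeq2 and the mm10 build are named in the submitters' processing notes. Their roles, the strand setting and the annotation were not given in the sources used here. Each of 16 deposited columns is a signal per library (normalized counts); 100% of values are within 0.01 of whole multiples of the library's smallest value above 0, so reads were recovered by that division. A count of 0 allows up to 3 reads (counting error only). Per the file headers, the authors' comparison holds a log2 fold change with its error, a p-value and adjusted p-value, and a Wald score. Of 23563 lines with values (1 line was emptied) 208 repeats of an Ensembl ID were removed, leaving 23355 genes.

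limma 3.58.1 with a mean-variance trend was run on log2(value + 1) of the 15007 genes that reached 10 normalized counts in 7 or more libraries (R 4.3.3), with a threshold of 0.05 on the adjusted p; the pseudocount understates changes of low genes. The steps were tested on simulated data. Correlations were tested over 100000 permutations of the libraries, or exactly within a group. Exon lengths are of all annotated exons of a gene merged, from GENCODE M21, whose genes overlap those of 22981 genes in the table. Alternatives were other pseudocounts, filters and scalings, edgeR 4.0.16, DESeq2 1.42.0, voom, removal of length or GC trends, and leaving out each library. P-values weigh a difference between the groups, or a correlation, against the variation between libraries. The 10 genes, the lists and the tests were chosen with earlier results of these data known. Genes named beyond the 10 were taken from those with the 3 smallest p-values of each list, not all of which are reported here, and the 8 most like the mean of the 10.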

Additional observations from a re-analysis of the deposited data

Results flagged for a closer look

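Of 20 sets tested (10 genes in 2 groups), 7 had a highest library separated from the next by more of the group's range than Dixon's 95% critical value allows. That value assumes normally distributed values, whereas normalized counts are skewed and the genes correlated. The 7 therefore cannot be set against a rate given by chance. Library 6 was that library in the H3.3WT group for Gfap (58836 normalized counts), Slc1a3 (27705), Gja1 (4988) and Aldh1l1 (1596). In the same group it was library 9 for Sox9 (3561) and library 3 for Fgfr3 (3960). In the H3.3K27M group it was library 15 for Id4 (1234). On the log2 scale Slc1a3 and Gja1 in library 6 passed that value, and so did the lowest H3.3WT library of Id4, library 5.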

How the results depend on the processing

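No paired analysis was possible because the numbered libraries of the table carry none of the replicate numbers of the labels. The labels also state no pairing of tumours between the groups. Their replicate numbers run to 7 for H3.3K27M and to 9 for H3.3WT tumours, and the groups were compared as unpaired. Among all genes tested, 0 were called higher and 0 lower by limma; DESeq2 called 67 higher and 41 lower, voom with quality weights called 2 higher, and with 1 library left out 0 to 9 were called higher and 0 to 4 lower, the most being without library 10. edgeR called 0, with 2382 at an unadjusted p under 0.05 beside 2298 by limma. By the adjusted p, none of the 10 astrocyte genes was called under any of the 27 alternatives. At an unadjusted p under 0.05, Gja1 stood by edgeR and by limma with the length trend removed. Fgfr3 stood there by voom and by limma without library 3 or 12, and Slc1a3 by limma without library 6. Of all genes, 1481 stood there with the length trend removed and 3349 by voom. Without library 3, 12 or 6 it was 2789, 2720 and 1890. The median log2 fold change of the 10 genes was -0.18 to 0.28 with 1 library left out. Gfap, Slc1a3, Gja1, Aldoc and Fgfr3 kept their sign in all 27. The sign of Aqp4 turned with upper quartile scaling (-9.0e-05), edgeR (-0.40), DESeq2 (-0.40), voom (-0.21), and removal of the length (-0.082) or GC trend (-0.070). Sox9 turned with edgeR (-0.066) and DESeq2 (-0.061), Id4 with voom (0.046) and the length trend removed (0.019), and Slc1a2 with the length trend removed (-0.16); the cause was not tested. With 1 library left out, the range was -0.50 to 0.43 for Aqp4, -0.079 to 0.28 for Slc1a2, -0.48 to 0.29 for Aldh1l1, -0.21 to 0.40 for Sox9 and -0.37 to 0.19 for Id4. Low genes are known least well in library 8, where a count of 0 allows 8.52 normalized counts.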
